A study of Mus musculus with 5 samples.

Results

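Megalin and cubilin are the large apical receptors with which proximal tubule (PT) cells take filtered proteins and vitamin carriers back from the tubular fluid, and 6 genes of this uptake route were followed here by symbol: Lrp2 (megalin), Cubn (cubilin), Amn, Dab2, Lrpap1 and Clcn5. They are 6 of the 32285 genes listed for each library, 21910 of which had a UMI in at least 3 kept cells, and all 6 were measured in all 5 libraries. The genes were listed by their known function, with earlier results of these data known. Amn (amnionless) anchors cubilin in the membrane, Dab2 is a clathrin adaptor that binds the tail of megalin, Lrpap1 (receptor-associated protein) is the chaperone of megalin in the endoplasmic reticulum, and Clcn5 (ClC-5) is a chloride-proton exchanger of endosomes whose loss causes Dent disease. Failure of this route leads to low-molecular-weight proteinuria.

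Kidney cells of male mice (wild-type C57BL/6, 8 to 10 weeks old) were sequenced in droplets from the 3′ end of transcripts. Aristolochic acid I (AAI), a plant toxin that injures PT cells, was injected into the peritoneum over 2 weeks, with a dose of 3 mg/kg given every 3 days. Libraries were made at week 0 (control, 1 library), at week 2 (AKI phase, acute kidney injury, 2 libraries) and at week 4, after 2 weeks without AAI (CKD phase, chronic kidney disease, 2 libraries). The methods give sample sizes equal to these numbers of libraries but do not say that each was a separate mouse, so p-values measure the spread between libraries, which may be technical. The control is a single library whose file names the genome build mm10, while the submitters' processing notes name GRCm39. Condition and processing therefore cannot be told apart in comparisons with the control.

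Of 53718 kept cells, 2847 were called PT-like from 12 marker genes that did not include the 6 genes: 776 in the control, 396 and 347 in the AKI libraries and 1081 and 247 in the CKD libraries. The kept cells held 55579629 to 80939804 UMIs per library. The summed level of the 12 PT markers in PT-like cells was 120 UMIs per 10000 in the control and 76.2 to 88.9 in the other libraries. The mitochondrial limit of 30% removed far more barcodes from the control (38.7%) than from the others (11.1% to 12.7%). Subclusters led by genes of other cell types were left out of the PT-like class, which took 51.6% of the cells of PT clusters in CKD 1 and 5.60% to 16.8% in the others. The control shared 132 barcodes with CKD 2, and in 99 of these the CKD 2 barcode had over 20 times the UMIs, but 0 PT-like cells were among the control cells with such a deeper partner.

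In GRCm39, Lrp2 (ENSMUSG00000027070) spans chr2:69254682-69416409 and Cubn (ENSMUSG00000026726) chr2:13281149-13496624, both on the minus strand. Amn (ENSMUSG00000021278) spans chr12:111237524-111244001 and Dab2 (ENSMUSG00000022150) chr15:6329269-6470196, both on the plus strand. Lrpap1 (ENSMUSG00000029103) spans chr5:35248837-35263892 and Clcn5 (ENSMUSG00000004317) chrX:7019726-7185661, both on the minus strand. The receptor genes are long, 162 kb for Lrp2 and 215 kb for Cubn, whereas Amn spans 6.48 kb.

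Lrp2, Cubn and Amn had much the same pattern over cell classes, and the 250 bases before their start sites are shown for that reason. The sequences are from RefSeq on GRCm38.p6, 5′ to 3′ on the strand of the gene: chr2:69586030-69586279 for Lrp2, chr2:13491877-13492126 for Cubn and chr12:111270846-111271095 for Amn. Capitals mark matches on either strand to the GC box GGGCGG, the CCAAT box CCAAT, the TATA box TATAAA or the E-box CACGTG.
Lrp2: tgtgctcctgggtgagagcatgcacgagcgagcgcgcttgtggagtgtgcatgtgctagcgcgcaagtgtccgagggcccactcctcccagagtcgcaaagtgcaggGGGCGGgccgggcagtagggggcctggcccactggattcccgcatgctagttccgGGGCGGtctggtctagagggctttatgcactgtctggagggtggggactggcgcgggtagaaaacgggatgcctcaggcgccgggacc
Cubn: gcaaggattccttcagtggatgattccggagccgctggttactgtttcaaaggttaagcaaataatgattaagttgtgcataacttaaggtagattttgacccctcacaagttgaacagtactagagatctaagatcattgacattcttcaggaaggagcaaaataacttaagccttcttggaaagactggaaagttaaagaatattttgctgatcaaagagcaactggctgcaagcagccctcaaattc
Amn: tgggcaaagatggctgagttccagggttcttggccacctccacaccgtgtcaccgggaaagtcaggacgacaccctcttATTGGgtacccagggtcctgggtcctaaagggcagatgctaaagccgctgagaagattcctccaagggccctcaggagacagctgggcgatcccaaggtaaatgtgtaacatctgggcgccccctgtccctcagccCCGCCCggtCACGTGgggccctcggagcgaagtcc
The Lrp2 window held 2 GC boxes, and the Amn window held 1 GC box, 1 CCAAT box and, 26 bases before the start site, 1 E-box. The Cubn window held none of these letters. A GC box was found in 32.7% of 32851 windows of the same length, a CCAAT box in 33.8%, a TATA box in 12.4% and the E-box in 6.02%. The HNF1 palindrome (in 0.0609% of windows) and CAAAGTCCA, a site of HNF4A type (in 0.384%), were searched on both strands and were in no window of the 6 genes. GC content was 66.4% before Lrp2, 61.2% before Amn and 39.6% before Cubn, against a median of 52.4% over all windows.

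Among 17 cell classes, RNA of both receptors and of Amn was found well above background in PT-like cells. Levels are UMIs of a gene per 10000 UMIs of all cells of a class in a library. They are not divided by transcript length, so genes are not compared with each other. T lymphocyte-like cells, which should lack the receptors, served to show what free RNA in the droplets adds. Lrp2 was 7.56 in PT-like cells of the control, 4.08 and 4.20 in AKI and 5.19 and 5.03 in CKD, and in T lymphocyte-like cells of the same libraries 0.461, 0.0956, 0.0981, 0.178 and 0.0247. The PT-like level was thus at least 16.4 times the T lymphocyte-like level in each library for Lrp2, 16.4 times for Cubn and 17.2 times for Amn. The next highest median of Lrp2, in neutrophil-like cells, was 0.645 (0 to 0.974 over 4 libraries), and no other class reached the PT-like range of any of these 3 genes. PT-like cells were 2.81% to 9.13% of the cells of a library and held 57.8% to 71.4% of the Lrp2 UMIs, 57.1% to 72.4% of the Cubn UMIs and 57.9% to 71.8% of the Amn UMIs. The rest does not all lie outside the PT: cells left unnamed, among them the PT subclusters led by genes of other classes, held 15.6% to 22% of the Lrp2 UMIs. Unnamed cluster 5 (2141 cells) was led by PT genes such as Miox and Keg1 but was shallow, with a median of 618 to 1879.5 UMIs, and no marker list stood out in it. Lrp2 was 1.33 there in the control, 1.23 and 1.14 in AKI and 0.943 and 1.92 in CKD, and the cluster held 1.55% to 2.15% of the Lrp2 UMIs.

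The adaptor and the chaperone were highest in PT-like cells as well but were found in other classes too. Dab2 was 3.04 to 4.76 in PT-like cells, 1.99 to 2.75 in CD IC-like cells (intercalated cells of the collecting duct, which secrete acid or base), 1.31 to 2.37 in macrophage-like cells and 1.13 to 1.91 in monocyte-like cells. The monocyte-like cluster had all 5 monocyte markers detected but none among its 10 leading genes, which were Fn1, Ccl6, Lyz2 and others such as Trem2 and Mmp12 that macrophages also express. The PT-like range did not overlap the CD IC-like one, whereas the ranges of CD IC-like and macrophage-like cells overlapped, as did those of macrophage-like and monocyte-like cells. T lymphocyte-like cells had 0.0349 to 0.132. Lrpap1 was 2.06 to 3.16 in PT-like cells and 0.877 to 1.58 in pericyte/fibroblast-like cells, the next in order, after which the classes overlapped down to 0.252 to 0.371 in T lymphocyte-like cells. Of all Dab2 UMIs 20.9% to 32.6% lay in PT-like cells, and of all Lrpap1 UMIs 18.4% to 32.5%.

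Clcn5, in contrast, had its highest level outside the proximal tubule. In CD IC-like cells it was 2.68 in the control, 3.10 and 3.85 in AKI and 2.86 and 4.03 in CKD. In PT-like cells it was 0.538 in the control, 0.786 and 1.02 in AKI and 0.757 and 0.658 in CKD. Every CD IC-like value was therefore above every PT-like value. Cells of the thick ascending limb (TAL-like, 0.262 to 0.602) came next and overlapped the PT-like range, although one of the clusters in that class, cluster 18 with 1142 cells, was led by Slc12a3, the cotransporter of the distal convoluted tubule, with 1 TAL marker among its 10 leading genes. T lymphocyte-like cells had 0.0363 to 0.0928. PT-like cells held 5.27% to 24.1% of the Clcn5 UMIs.

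**Figure D1:**
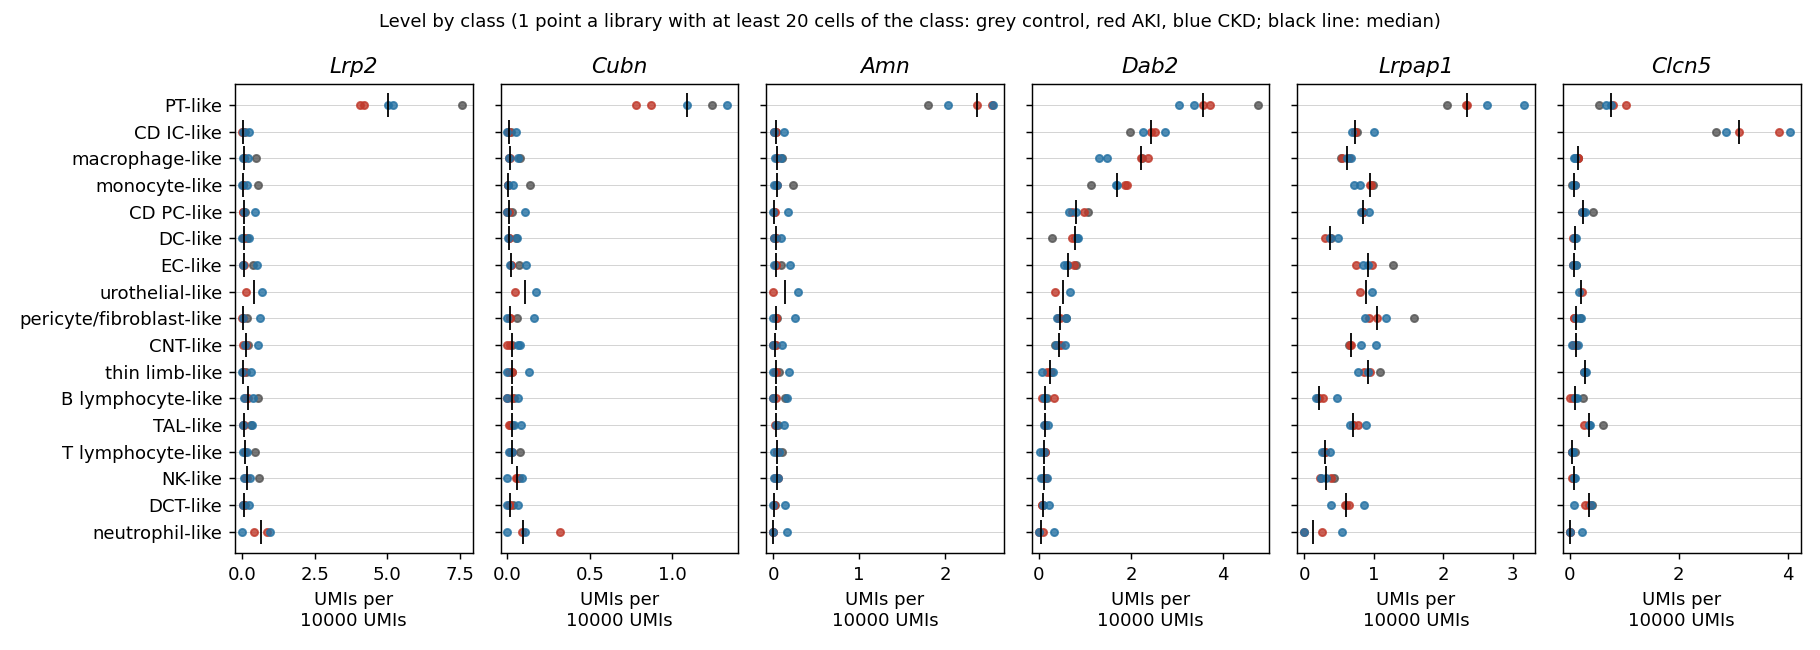
Level of the 6 genes in 17 cell classes (rows), in UMIs per 10000 UMIs on linear axes, one for each gene. Each point is 1 library with at least 20 cells of the class (grey control, red AKI, blue CKD), and the black line is the median. Lrp2, Cubn and Amn are high in PT-like cells, Dab2 reaches 2.75 in CD IC-like and 2.37 in macrophage-like cells, and Clcn5 is highest in CD IC-like cells, at 2.68 to 4.03.

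The CD IC-like class consisted of 2 clusters. Cluster 21 (832 cells) was led by Slc26a4 (pendrin, the apical anion exchanger of base-secreting cells), and Clcn5 was 2.72 in the control, 3.21 and 3.62 in AKI and 3.67 and 4.19 in CKD. Cluster 25 (732 cells) was led by Aqp6 and Slc4a1 (the anion exchanger of acid-secreting cells), and Clcn5 was 2.40, 1.59, 5.65, 0.986 and 0.514 in the same order. The control value of cluster 21 was the lowest of its 5. In cluster 25 both CKD values were below those of AKI and control, and the control lay between the AKI values. Cells of cluster 25 were shallow, with a median of 2262.5 UMIs against 24088.5 in cluster 21, and its CKD 2 value rests on 3 UMIs.

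For each gene, genes with a similar pattern were sought over 81 sums of a class in a library, as Pearson's r of log2 levels with 0.1 added. The sums of a library share its depth and free RNA, so r is given as a description. Lrp2 was near to Pck1 (r = 0.97), Slc34a1 (0.96), Akr1c21 and Miox. Cubn was nearest to Hnf4a (0.96), Fam151a, Keg1, Slc5a2 and Cyp2j5, and Amn to Aadac (0.97), Slc7a9, Eci3 and Cyp2d26. Slc34a1, Miox, Keg1 and Slc5a2 are among the markers that named the PT-like class. Between members, r was 0.93 for Lrp2 and Cubn, 0.92 for Cubn and Amn and 0.89 for Lrp2 and Amn, but 0.32 for Lrp2 and Dab2, 0.40 for Lrp2 and Lrpap1 and 0.20 for Lrp2 and Clcn5. Dab2 was near to Akr1a1 (0.74), Tmem106a, Mfsd1 and Uap1l1, Lrpap1 to Gkap1 (0.87), Trio, Atraid and Slirp, and Clcn5 to Aldh1l1 (0.88), Fam13a, Acot3, Acp6 and Sema3b.

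In the 2 AKI libraries, PT-like cells had less megalin and cubilin RNA and more Clcn5 RNA than in the single control library, whose spread the test takes from the AKI and CKD libraries. Lrp2 was 7.56 in the control (95% Poisson interval 7.31 to 7.81) and 4.14 ± 0.0873 (SD, n = 2) in AKI, that is 0.548 of the control, with both AKI libraries below it. Its log2 fold change was -0.89 ± 0.18 (SE) with an adjusted p of 0.00464 (edgeR's quasi-likelihood test on summed UMIs). Cubn was 1.24 in the control and 0.874 and 0.779 in AKI, both lower, with a log2 fold change of -0.61 ± 0.19 and an adjusted p of 0.0366 (edgeR). Clcn5 was 0.538 in the control and 0.786 and 1.02 in AKI, both higher, with a log2 fold change of 0.73 ± 0.22 and an adjusted p of 0.0348 (edgeR). Of the 6 genes 3 were called, 2 lower and 1 higher, where 21.3% of 11976 tested genes were called (8.14% lower and 13.2% higher). In summed counts, fewer cells of a kind and less RNA per cell cannot be told apart.

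The other 3 genes did not pass the test. Dab2 was 4.76 in the control and 3.56 and 3.71 in AKI (log2 fold change -0.41 ± 0.18, adjusted p 0.135, edgeR). Amn was 1.80 in the control and 2.37 and 2.54 in AKI (0.43 ± 0.21, adjusted p 0.169, edgeR). Lrpap1 was 2.06 in the control and 2.35 and 2.33 in AKI (0.16 ± 0.20, adjusted p 0.603, edgeR). For each of the 6 genes both AKI libraries lay on the same side of the control, as they did for 85.0% of all tested genes.

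Other measures also differed between the libraries in PT-like cells, not all of them in step with the phases. Subcluster 1, whose cells were the deepest, gave 37.9% of the UMIs of PT-like cells in the control, 76.2% and 79.5% in AKI and 63.1% and 60% in CKD, while the unnamed subcluster 0 gave 35.2%, 6.95%, 8.99%, 14.4% and 13.2% in the same order. The summed level of TAL markers was 8.51 in the control, 2.40 and 1.51 in AKI and 4.17 and 1.28 in CKD. That of 7 T lymphocyte markers was 0.0562 in the control, where 2 of 7 were at 0, 0.421 and 0.393 in AKI and 1.01 and 0.632 in CKD, while the T lymphocyte-like class itself had 32.5 to 43.4. CD IC markers, of the class with the highest Clcn5, were 0.731 in the control, 0.237 and 0.110 in AKI and 0.554 and 0.157 in CKD. The sum for macrophage markers was 0.143 in the control and 0.252 to 0.673 in the others. The median depth was 4286.5 UMIs in the control, 3263 and 11200 in AKI and 3885 and 6672 in CKD. The part of these in the results was not tested.

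These calls did not all hold under other settings. With a mitochondrial limit of 15%, which took the control from 776 to 495 PT-like cells, the log2 fold change was -0.49 for Lrp2 (adjusted p 0.124) and -0.14 for Cubn (adjusted p 0.730), and with DESeq2 only Lrp2 was called. Without AKI 2 the adjusted p was 0.147 for Cubn and 0.210 for Clcn5, and without AKI 1 it was 0.0503 for Cubn. With unnamed cluster 5 added to the PT-like class, Lrp2 was still called (-0.81, adjusted p 0.0131), while the adjusted p was 0.0948 for Cubn and 0.0634 for Clcn5 (edgeR).

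At the CKD phase none of the 6 genes passed the test against the control, although Lrp2 and Dab2 came close to the threshold. Lrp2 was 5.19 and 5.03, a mean of 0.676 of the control (log2 fold change -0.59 ± 0.18, adjusted p 0.0547, edgeR). Dab2 was 3.04 and 3.38, a mean of 0.674 of the control (-0.59 ± 0.18, adjusted p 0.0540, edgeR). Both genes were below the control in both CKD libraries. Cubn, in contrast, was 1.09 and 1.33, on either side of the control's 1.24 (-0.06 ± 0.19). Lrpap1 was 3.16 and 2.63 (0.48 ± 0.20), Amn 2.55 and 2.04 (0.33 ± 0.21) and Clcn5 0.757 and 0.658 (0.38 ± 0.22), all above the control. Both CKD libraries lay on the same side of the control for 5 of the 6 genes and for 79% of all tested genes. With edgeR 0 of 6 were called, where 12.5% of tested genes were called. An unadjusted p under 0.05 was found by edgeR for 3 of the 6 and for 3165 of 11976 tested genes. DESeq2 called 2, Lrp2 (adjusted p 0.0216) and Dab2 (adjusted p 0.0300).

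Between CKD and AKI, with 2 libraries each, no member passed the test in PT-like cells. The widest difference was that of Cubn, at 0.874 and 0.779 in AKI and 1.09 and 1.33 in CKD, a mean 1.47 times as high, with no overlap (log2 fold change 0.55 ± 0.16, unadjusted p 0.00450, adjusted p 0.122, edgeR). Lrp2 (0.30 ± 0.15) and Lrpap1 (0.31 ± 0.16) were also higher in both CKD libraries, and Dab2 (-0.18 ± 0.15) and Clcn5 (-0.35 ± 0.17) lower in both, while the phases overlapped for Amn (-0.09 ± 0.17). With edgeR 0 of 6 were called, where 1.8% of tested genes were called. An unadjusted p under 0.05 was found by edgeR for 1 of the 6 and for 1757 of 11976 tested genes. DESeq2 called 0 of 6 and gave 2 an unadjusted p under 0.05, for which the share of all genes is not given here. Phases did not overlap for 5 of the 6 genes and for 46.8% of all tested genes. In counts simulated for this comparison over 11645 genes, 66.7% of 2-fold and 87.9% of 4-fold changes were called, so that changes of the size seen here can be missed.

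**Figure D2:**
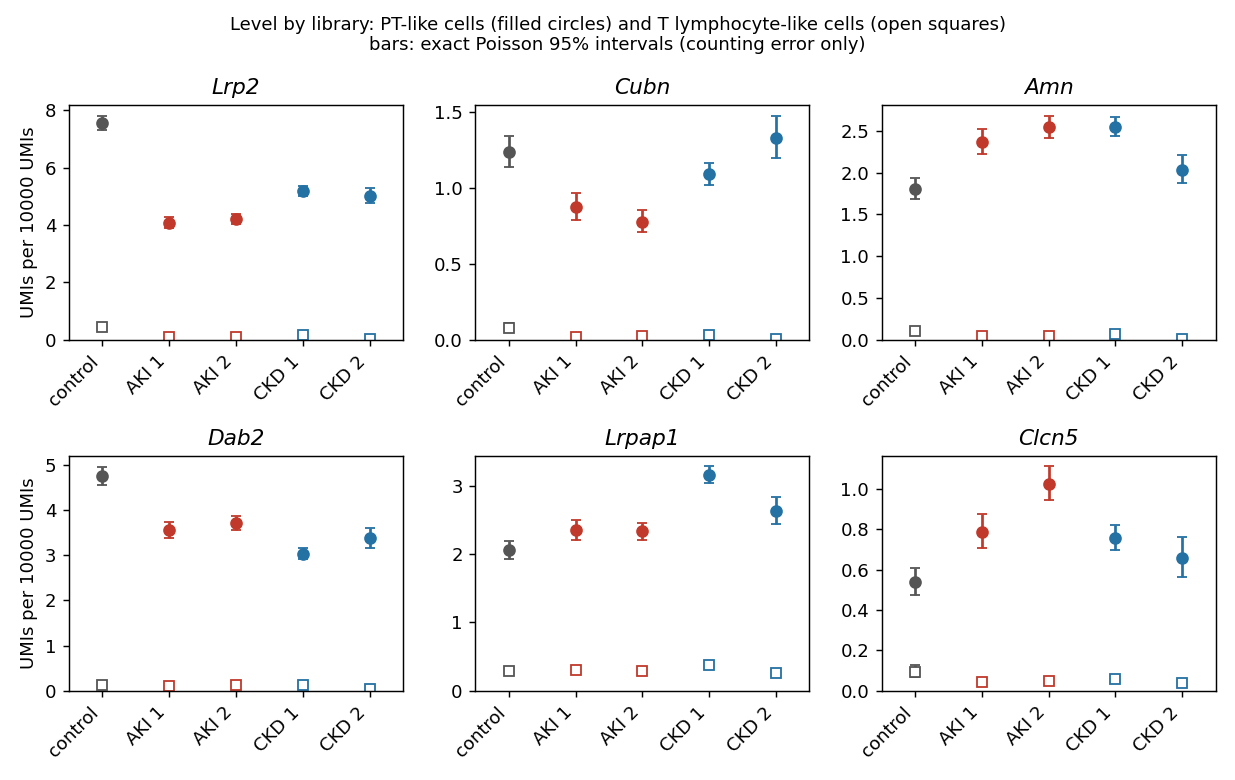
Level of each gene in UMIs per 10000 UMIs (vertical axes from 0) in the 5 libraries, in PT-like cells (filled circles) and T lymphocyte-like cells (open squares). Bars are exact Poisson 95% intervals, which cover counting error only. Lrp2 in PT-like cells is 7.56 in the control and 4.08 to 5.19 in the others.

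**Figure D3:**
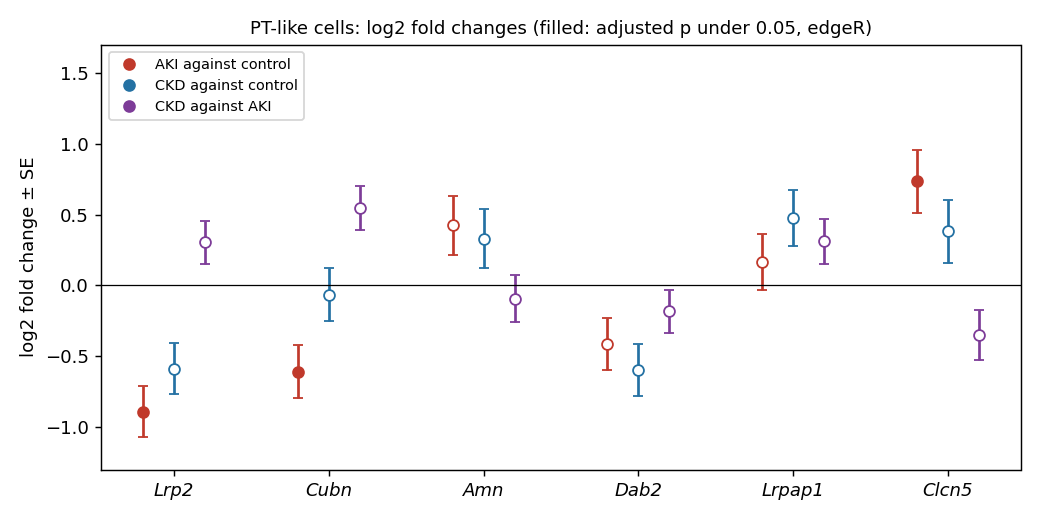
Log2 fold changes of the 6 genes in PT-like cells (vertical axis, bars are SE) for AKI against control, CKD against control and CKD against AKI. Filled points have an adjusted p under 0.05 (edgeR), which are Lrp2, Cubn and Clcn5 in AKI against control.

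In cells called S1-S2-like, named for the first segments of the PT, where most filtered protein is taken up, Cubn was higher in CKD than in AKI. It was 0.944 and 0.786 in AKI and 1.24 and 1.49 in CKD, against 1.67 in the control. The log2 fold change between CKD and AKI was 0.67 ± 0.18 with an adjusted p of 0.0496 (edgeR), where 2.61% of 11717 genes were called. This call lay at the threshold: it was lost in 9 of 13 other settings, DESeq2 among them (adjusted p 0.159), with adjusted p between 0.00343 and 0.725 over all settings. Among the 9 were the settings without AKI 1 (0.121), AKI 2 (0.725) or CKD 2 (0.0984). Lrp2 was 4.33 and 4.35 in AKI and 6.00 and 5.63 in CKD (0.43 ± 0.18, adjusted p 0.267, edgeR). The class includes subcluster 1, which is led by C3, fibrinogen genes and Spp1 and held 31.1% and 48.7% of the PT-like cells in AKI and 30.5% and 28.3% in CKD. As its cells are deep, it gave 86.7% and 91.9% of the UMIs of the class in AKI, 81.2% and 75.5% in CKD and 58.9% in the control. Within it Cubn was 0.842 and 0.734 in AKI and 0.981 and 0.992 in CKD. S3-like and injured-like cells numbered under 20 in at least 1 library and could not be tested.

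Within the PT-like class, receptor RNA differed widely between subclusters. Pooled over libraries, Lrp2 was 19.2 in subcluster 4 (298 cells), 9.49 in subcluster 2 (761 cells), 4.43 in subcluster 1 (829 cells), 3.07 in the injured-like subcluster 11 (74 cells), 2.37 in subcluster 0 (852 cells, unnamed) and 1.29 in the S3-like subcluster 14 (33 cells; 28 of them were from CKD 1, where Lrp2 was 0.688). Subclusters 1, 2 and 4 are called S1-S2-like from the mean score of 6 markers of these segments, none of which was among their 10 leading genes. Subcluster 1 was led by Ugt2b37, C3, Ptgds, fibrinogen genes and Spp1, a gene of the injury list, subcluster 2 by noncoding RNAs such as Snhg11 and Malat1, and subcluster 4 by Gm26917, Lama5 and Rmrp. Cubn was 3.48 in subcluster 4, 1.65 in subcluster 2, 0.929 in subcluster 1 and 0.488 in subcluster 0. Dab2 did not share this order: it was 2.65, 3.63, 3.74 and 3.95 in the same 4 subclusters. By library, it was lowest in subcluster 4 in 4 of 5, and highest in subcluster 0 in the control (5.46) but in no other library. Malat1, an RNA kept in the nucleus, was 1174 and 2121 in subclusters 4 and 2 against 332 and 69.1 in subclusters 1 and 0. Cells of subcluster 1 were the deepest, with a median of 17817 UMIs against 2775.5 to 3206.5 in the other 3. The part of nuclear RNA and of depth in these levels was not tested.

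Inside single subclusters, the lower Lrp2 of the AKI libraries was seen again in some. In subcluster 1 it was 7.70 in the control, 3.50 and 3.95 in AKI and 4.51 and 3.87 in CKD. In subcluster 2 it was 12.9 in the control, 7.41 and 7.50 in AKI and 8.55 and 6.07 in CKD. The control was the highest library in both. In subcluster 4 Lrp2 was 19.8, 16.9, 14.6, 21 and 18.2 in the same order, so that both AKI values were below the other 3, while the control lay between the CKD values. Subcluster 4 held only 38 cells in AKI 1 and 13 in AKI 2, the latter under the 20 cells required for tested sums. In subcluster 0 Lrp2 was 2.27, 2.14, 2.59, 2.39 and 2.64, and the control lay between the AKI values. Subcluster 1 held 17.7% of the PT-like cells of the control and 28.3% to 48.7% of those of the other libraries.

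Malat1 in PT-like cells, like Lrp2, was highest in the control, at 759 against 530 and 436 in AKI and 490 and 473 in CKD, and its part in the Lrp2 difference was not tested. Without the 2 Malat1-rich subclusters (2 and 4), the log2 fold change of Lrp2 between AKI and control was -0.59 (adjusted p 0.0292, edgeR), and Clcn5 was higher (0.88, adjusted p 0.00963), whereas Cubn was no longer called (-0.41, adjusted p 0.0907). Dab2 was then lower (-0.55, adjusted p 0.0349) and Amn higher (0.57, adjusted p 0.0432). This setting was chosen after the data had been seen.

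**Figure D4:**
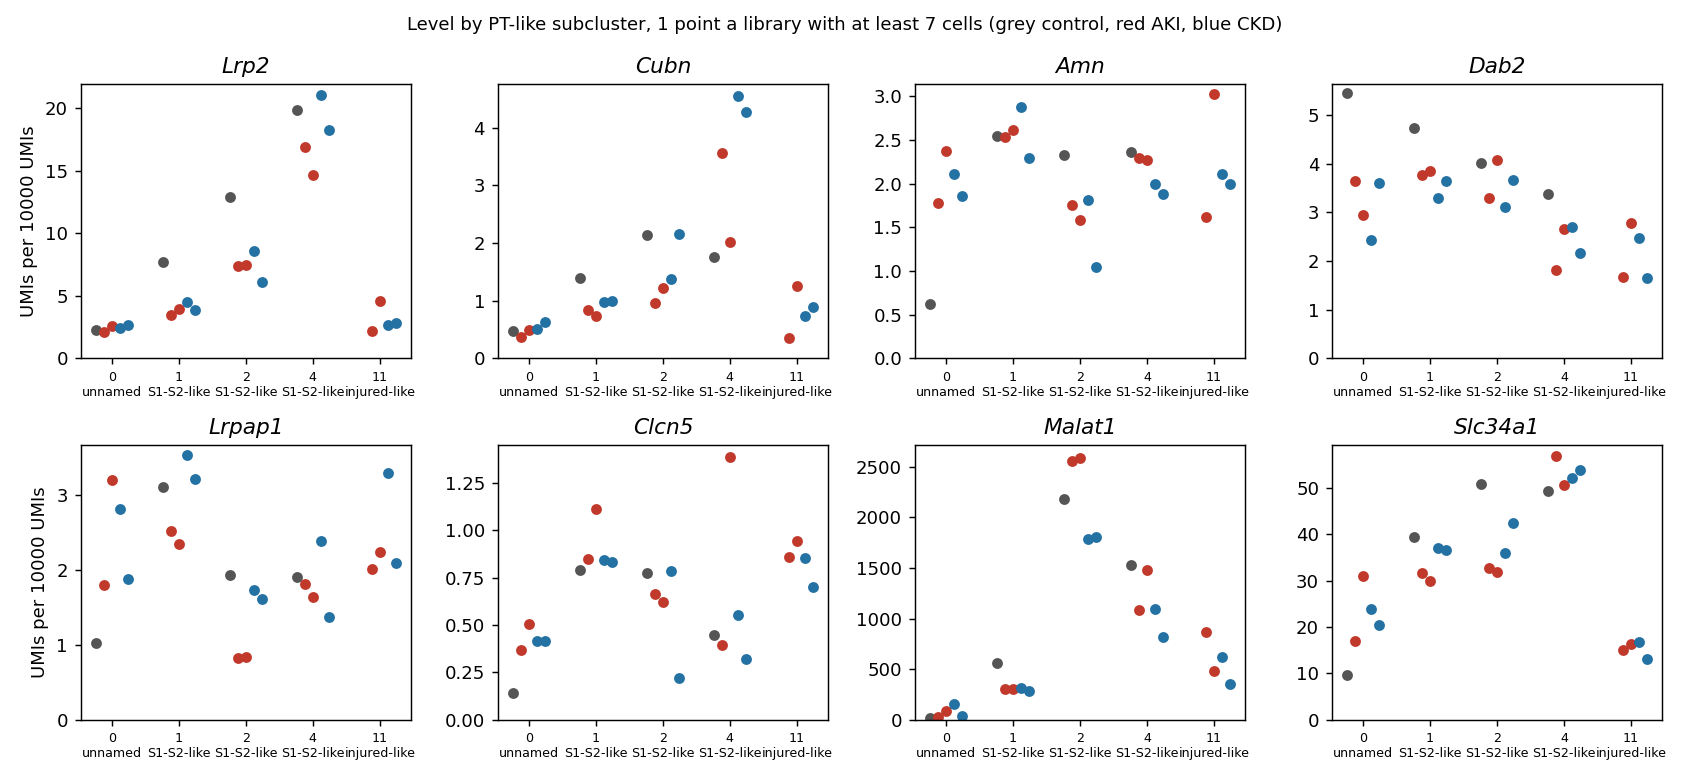
Level of the 6 genes, Malat1 and the phosphate transporter Slc34a1 in UMIs per 10000 UMIs (vertical axes from 0) in 5 subclusters of PT-like cells. Each point is 1 library with at least 7 cells of the subcluster, from left to right control (grey), AKI (red) and CKD (blue). Lrp2 is 14.6 to 21 in subcluster 4 and 2.14 to 2.64 in subcluster 0.

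The share of PT-like cells with at least 1 UMI of a gene was compared after thinning every cell to 1000 UMIs, which left out 45 cells of the control, 74 and 17 of AKI and 0 and 11 of CKD. Lrp2 was found in 46.9% of control cells (exact binomial 95% interval 43.3% to 50.6%), 37.6% and 34.2% of AKI cells and 36.7% and 36.4% of CKD cells. The interval covers counting error in 1 library, and the libraries' shares were not tested against each other. In T lymphocyte-like cells the shares were 5.09%, 0.921%, 1.16%, 2.68% and 0.389%, at median depths of 3326 to 5680 UMIs before thinning against 3885 to 12341 in PT-like cells. Cubn was found in 13.4% of control cells, 10.6% and 8.18% of AKI cells and 11.1% and 15.7% of CKD cells. Clcn5 was found in 4.65% of control cells, 7.76% and 8.79% of AKI cells and 5.74% and 3.81% of CKD cells, but thinned to 500 UMIs it was found in 2.58% of control cells and 2.02% and 5.48% of AKI cells, so that the order of the control and AKI 1 turned. Lrp2 at 500 UMIs was found in 32.3% of control cells, 24.7% and 14.4% of AKI cells and 23.3% and 23.9% of CKD cells. Without thinning, Lrp2 was found in 78.0%, 70.5%, 82.4%, 70.7% and 80.2% of PT-like cells.

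The machinery beyond the receptors was read from lists of genes in PT-like cells. Free RNA was not removed, no T lymphocyte-like level is given for the genes of these and the following lists, and its part in their levels was not tested. Of 17 tested genes of the clathrin coat and its adaptors, 1 was higher in AKI than in the control and 0 were lower, with a median log2 fold change of 0.00 (0.03 over all genes, of which 13.2% were higher and 8.14% lower). This was Ap2b1, a subunit of the AP-2 adaptor, at 0.246 in the control and 0.432 and 0.517 in AKI (0.93 ± 0.22, adjusted p 0.0105, edgeR). Of 24 genes of endosome sorting and recycling, 2 were higher and 1 lower, with a median of 0.01, so that both lists had a smaller called share than the 21.3% of all genes. Cln3, a lysosomal membrane protein, was 0.0908 in the control and 0.200 and 0.215 in AKI, and Rab11b, a GTPase of recycling endosomes, was 0.452 against 0.702 and 0.720. Appl2, an adaptor of early endosomes, was lower, at 0.355 against 0.233 and 0.197. In CKD against control 0 of 17 and 1 of 24 (Appl2, lower) were called, and in CKD against AKI 0 of 17 and 0 of 24, where 12.5% and 1.8% of all genes were called.

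Of 10 tested genes listed as other apical receptors and exchangers, a list that also holds scaffolds and proteins of lysosomes and of the proton pump, 5 were higher and 1 was lower in AKI than in the control, with a median of 0.62 (over all genes 13.2% were higher and 8.14% lower). Higher were Scarb2, a lysosomal membrane receptor (0.0346 in the control, 0.10 and 0.147 in AKI), and the proton pump accessory subunits Atp6ap2 (0.409 against 0.816 and 0.842) and Atp6ap1 (0.346 against 0.637 and 0.732). The scaffold Slc9a3r1 and the folate receptor Folr1 were higher too (Folr1 stands outside the rule for naming genes and was named after its values were seen). The scaffold Pdzk1 was lower, at 5.95 in the control and 4.15 and 3.86 in AKI. In CKD against control 2 of 10 were higher, Atp6ap1 and Atp6ap2, where 12.5% of all genes were called.

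Among 10 tested other members of the LDL receptor family, to which megalin belongs, Lrp10 alone was called, higher in both comparisons with the control, so that 1 of 10 was called where 21.3% of all genes were in AKI and 12.5% in CKD. It was 0.383 in the control, 0.911 and 0.975 in AKI and 0.723 and 0.811 in CKD (AKI: 1.28 ± 0.20, adjusted p 0.000898; CKD: 0.97 ± 0.20, adjusted p 0.00768, edgeR). Of 12 PT transcription factors, 2 were called in AKI and 1 in CKD, against the same shares of all genes: Pax8 was higher (0.642 in the control, 0.967 and 1.09 in AKI) and Tfec lower (0.512 against 0.335 and 0.329), and in CKD Maf was lower (12.2 in the control, 6.42 and 7.61 in CKD). Hnf4a, the factor nearest to Cubn in pattern over classes, was 1.87 in the control, 1.76 and 1.99 in AKI and 1.52 and 1.83 in CKD and did not pass the test in any of the 3 comparisons.

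Transporters of PT cells, apical and basolateral, were called in both directions in AKI against control, but only as higher in the other comparisons. Of 25 tested solute carriers and brush border genes, 9 were higher and 2 lower in AKI than in the control, with a median of 0.40, against 13.2% higher and 8.14% lower over all genes. The sulfate transporter Slc13a1 was 2.49 in the control and 9.28 and 13.6 in AKI, the peptidase Anpep 0.214 against 0.595 and 0.580, and the amino acid transporter subunit Slc3a1 0.733 against 1.76 and 1.92. The organic anion transporter Slc22a8 was lower (1.66 against 0.942 and 0.470), as was the amino acid transporter Slc6a19 (2.94 against 2.01 and 1.82). In CKD against control 8 of 25 were higher and 0 lower, where 12.5% of all genes were called. In CKD against AKI 4 of 25 were higher and 0 lower, where 1.8% of all genes were called. Slc22a12 was 1.15 and 0.790 in AKI and 1.97 and 2.01 in CKD, Slc22a6 0.563 and 0.795 against 1.30 and 1.33, Slc13a3 0.837 and 0.692 against 1.40 and 1.48, and Ggt1 0.965 and 0.785 against 1.46 and 1.52. Slc13a3, Slc22a6 and Slc22a8 are also among the markers that named the class.

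Tubular injury genes were higher in AKI than in the control for 12 of 18, and in CKD for 9 of 18, with 0 lower. Over all genes 13.2% were higher in AKI, and 12.5% were called in either direction in CKD against control and 1.8% in CKD against AKI. Spp1 (osteopontin) was 7.78 in the control, 171 and 255 in AKI and 126 and 88.5 in CKD. Havcr1 (KIM-1) had 0 UMIs in the control, with an upper limit of 0.00798 per 10000 (exact Poisson 95% interval). It was 0.0930 and 0.558 in AKI and 0.113 and 0.0621 in CKD. In CKD against AKI, 4 of 18 were lower (Vcam1, Sox4, Sox9 and Krt8) and 1 higher, the cell cycle inhibitor Cdkn1a. Vcam1 was 0.623 and 0.745 in AKI and 0.0812 and 0.110 in CKD (-2.91 ± 0.21, adjusted p 8.69e-05, edgeR), while Cdkn1a was 2.89 and 2.48 in AKI and 4.76 and 3.98 in CKD.

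Outside the PT, 2 of 75 tested pairs of a member and a class were called between CKD and AKI, both in macrophage-like cells, where 35.4% of all tested genes were called. These were 4508 genes, and 997 to 5640 under other settings, with 2358 without AKI 1 and 2213 without AKI 2. In the other classes the called share of all tested genes was 10.9% in monocyte-like, 7.91% in T lymphocyte-like, 1.3% in DCT-like (distal convoluted tubule) and 0.878% in B lymphocyte-like cells. It was 0.268% in CNT-like (connecting tubule), 0.0859% in NK-like (natural killer), 0.0474% in TAL-like, 0.0255% in CD IC-like and 0.00856% in CD PC-like cells (principal cells of the collecting duct) and 0 in DC-like (dendritic), EC-like (endothelial), pericyte/fibroblast-like and thin limb-like cells. Dab2 was 2.24 in the control, 2.37 and 2.22 in AKI and 1.31 and 1.48 in CKD (log2 fold change -0.87 ± 0.13, adjusted p 0.00166, edgeR). Clcn5 was 0.152 in the control, 0.158 and 0.144 in AKI and 0.0756 and 0.0869 in CKD (-1.05 ± 0.19, adjusted p 0.00461, edgeR), near the T lymphocyte-like level of 0.0363 to 0.0928. Both genes were lower in both CKD libraries, and with DESeq2 Clcn5 was not called (adjusted p 0.0673). Cluster 29, led by Ctsk, Mmp9 and Acp5, genes known from osteoclasts, made up 5.45% and 5.86% of the macrophage-like cells in AKI and 26.7% and 29.6% in CKD, and its Dab2 level in CKD was 0.569 and 0.611. Cluster 27, the remaining macrophage-like cluster, made up 27.3% and 24.8% in AKI and 4.62% and 16.1% in CKD. Cluster 22 (821 cells, 679 of CKD 1 and 114 of CKD 2), led by Jdp2 and Nrp2 and also by Acp5 and Mmp9, was left unnamed and lies outside the class. In cluster 4, led by chemokine and complement genes such as Ccl8 and C1qa, Dab2 was 2.45 and 2.22 in AKI and 2.19 and 2.68 in CKD and was not called alone (-0.14, adjusted p 0.631), nor was it with a mitochondrial limit of 15% (-0.12, adjusted p 0.687). Clcn5 in cluster 4 was 0.161 and 0.136 in AKI and 0.0835 and 0.0834 in CKD and was called alone (-1.03, adjusted p 0.0393, edgeR). Both of these CKD values lie within the T lymphocyte-like range of 0.0363 to 0.0928. The fit of cluster 4 alone was chosen after the data had been seen, and the share of all genes called in it is not given here.

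In CD IC-like cells the CKD-AKI difference was 0.11 ± 0.18 for Clcn5 (adjusted p 0.834) and 0.14 ± 0.14 for Dab2 (adjusted p 0.704, edgeR), and 0.0255% of tested genes were called. Whether the CKD-AKI difference of a member in PT-like cells was unlike that in another class was tested for 10 pairs whose level was over 3 times that of T lymphocyte-like cells in every library. With edgeR 0 of 10 were called and 1 had an unadjusted p under 0.05, the lowest adjusted p being 0.0505 for Dab2 against macrophage-like cells. Of all tested genes, 2103 of 13034 were called against macrophage-like and 270 of 12153 against monocyte-like cells. Against TAL-like cells 17 of 12530 were called, against CD IC-like cells 10 of 12083, and at most 1 in each other class of these pairs. The count of called pairs outside the PT hung on the setting. It rose when any 1 of the AKI or CKD libraries was left out, without the filter on low counts and with the replicate number as a block. The share of all genes called in those fits is not given here, so the rise is not read as a trait of the members. The T lymphocyte-like level of Lrp2 was 0.178 in CKD 1 and 0.0247 in CKD 2.

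**Figure D5:**
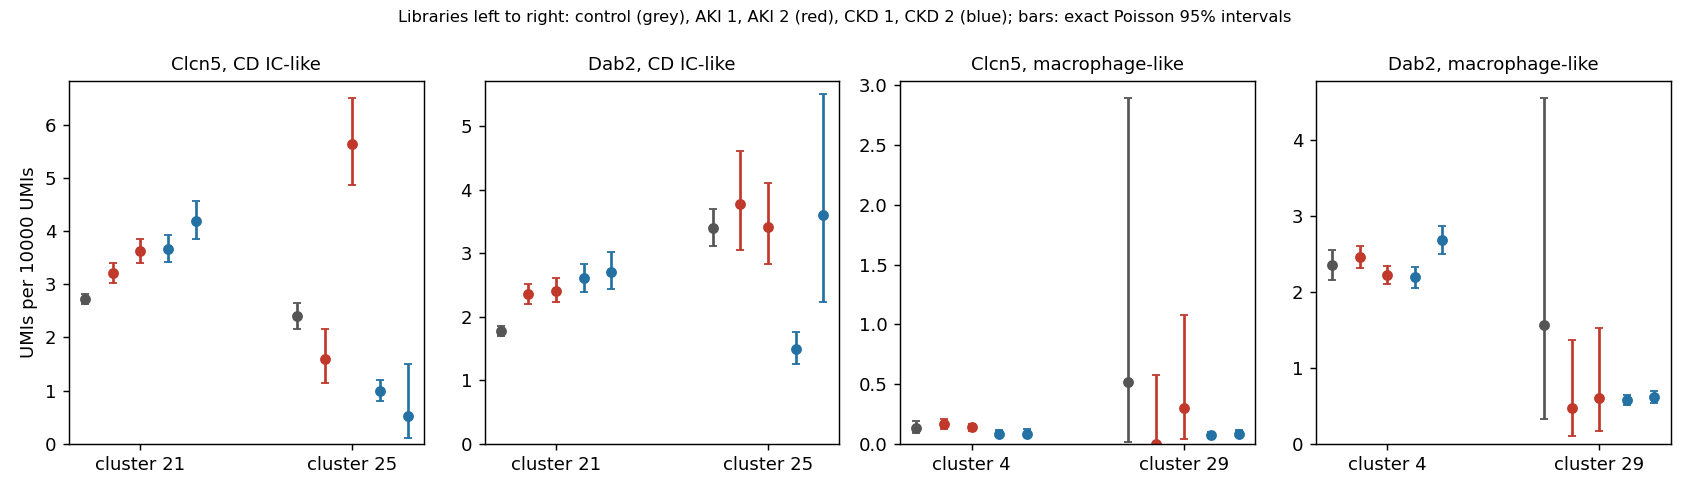
Clcn5 and Dab2 in UMIs per 10000 UMIs (vertical axes from 0, one for each panel) in 2 clusters of CD IC-like and 2 clusters of macrophage-like cells. Points are the 5 libraries in turn (grey control, red AKI, blue CKD), and bars are exact Poisson 95% intervals. Dab2 is 2.19 to 2.68 in macrophage cluster 4 and 0.569 and 0.611 in the CKD libraries of cluster 29.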

How the data were processed

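Kidney cells of 5 libraries (1 control, 2 AKI, 2 CKD) were measured by 10x 3′ single-cell RNA sequencing. The authors deposited raw UMI counts per gene and barcode, after alignment and cell calling and without normalization. The submitters' processing notes list Cell Ranger 7.2.0, STAR and GRCm39. In the AKI and CKD files a different Cell Ranger release is written, and in the control file the build mm10. Counts were matched by gene identifier. No per-sample column was left unused.

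Barcodes were dropped when over 30% of UMIs were mitochondrial or under 200 genes were detected (8496, 10199, 9910, 16330 and 8783 cells remained after doublet removal). Doublets were scored as the share of simulated doublets among neighbours, and the highest scores were removed at 0.8% per 1000 cells (6325 cells). CellBender, used in the study, was not run, so free RNA remains. From 3000 variable genes, without the 6 members and mitochondrial genes, 40 principal components were adjusted for library by a reimplemented Harmony and clustered with Leiden (resolution 1.5, 15 neighbours; 0.6 within PT-like cells). Clusters were named from markers, and PT subclusters whose top 50 genes held more markers of other classes than of PT were left out.

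UMIs were summed per class and library (at least 20 cells) and tested by quasi-likelihood in edgeR 4.0.16 (run under R 4.3.3) after filterByExpr and TMM scaling, with Benjamini-Hochberg adjustment over all tested genes and a threshold of 0.05, in 1 fit with the 3 groups as coefficients. The lone control is assumed to vary like the other groups. The SE of an edgeR log2 fold change was derived as its absolute value divided by the square root of the F statistic of the test. DESeq2 1.42.0, other filters, cell sets and left-out libraries were alternatives. The test was also run on counts simulated from the means and dispersions of the PT-like sums, with 200 changed genes. Intervals are exact Poisson or binomial intervals at the 95% level, and intervals and floors (3 counts) cover counting error only. Python 3.11.15, scipy 1.17.1 and leidenalg 0.10.2 were used.

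The members, gene lists and markers were chosen with earlier results of these data known. Named were the members, in each list up to 4 called genes per direction with the largest log2 fold change whose groups did not overlap, and for each member the 5 genes of highest r among 8136, some of which are not reported here.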

Additional observations from a re-analysis of the deposited data

How the results depend on the processing

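Of 294 values of the 6 genes in PT-like cells under other settings, 248 kept their direction and their side of the threshold, 15 lost a call, 17 gained one and 14 changed sign. There were 1 control library and 2 libraries per phase, and the cause of the changes below was not tested. Settings without a mitochondrial limit, with PT-like clusters taken whole, without Malat1-rich subclusters, with unnamed cluster 5 added, per non-mitochondrial UMIs and with macrophage cluster 4 alone were chosen after the data had been seen.

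For AKI against control, Lrp2 lost its call at a mitochondrial limit of 15% (-0.49). Cubn lost it with DESeq2 (-0.63), at 15% (-0.14), with doublets kept (-0.43), with clusters whole (-0.67), with cluster 5 added (-0.53) and without Malat1-rich subclusters (-0.41). Clcn5 lost it with DESeq2 (0.72), without correction by library (0.25), without a mitochondrial limit (0.29), with clusters whole (0.68) and with cluster 5 added (0.69). At 15% and without Malat1-rich subclusters, Amn (0.90 and 0.57) and Dab2 (-0.71 and -0.55) were called. Without correction by library and without a mitochondrial limit, Amn (-0.0105 and -0.10) and Lrpap1 (-0.43 and -0.19) changed sign. Leaving out 1 library gave -0.94 to -0.84 for Lrp2, -0.66 to -0.56 for Cubn and 0.49 to 0.94 for Clcn5. DESeq2 called 1240 genes and clusters without correction 1355, against 2556.

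For CKD against control, Lrp2 was called with DESeq2 (-0.61), without the filter on low counts (-0.59), without a mitochondrial limit (-0.86) and with clusters whole (-0.78), but it was -0.14 at 15% (adjusted p 0.731), the smallest difference of all settings. Dab2 was called with DESeq2 (-0.61), without the filter (-0.60), at 15% (-0.80), with clusters whole (-0.75) and without Malat1-rich subclusters (-0.65), where Lrpap1 was called too (0.57). Cubn changed sign at 15% (0.42) and with doublets kept (0.15). Amn (-0.078 and -0.21) and Clcn5 (-0.080 and -0.10) changed sign without correction by library and without a mitochondrial limit, and Lrpap1 (-0.051) without correction. Leaving out 1 library gave -0.20 to 0.052 for Cubn and -0.66 to -0.55 for Dab2, called without CKD 2. DESeq2 called 773 genes and clusters without correction 667, against 1493.

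For CKD against AKI, Cubn was called without the filter (0.54, adjusted p 0.0483, edgeR) and without a mitochondrial limit (0.77, adjusted p 0.0103). Over all settings it ranged from 0.32 to 0.77, with adjusted p up to 0.509 (without AKI 2). Amn changed sign without Malat1-rich subclusters (0.024) and ranged from -0.27 to 0.062 with 1 library left out. Against 215 genes, 120 were called with DESeq2, 666 without the filter, 109 at 15%, 511 with doublets kept, 505 without a mitochondrial limit, 123 with clusters whole, 105 with cluster 5 added, 133 without Malat1-rich subclusters, and 159 to 516 with 1 library left out (516 without AKI 1). In S1-S2-like cells 306 genes were called, and 103 with DESeq2, 585 without the filter, 135 at 15%, 181 with doublets kept, 119 without correction, 122 without a mitochondrial limit and 130 to 672 with 1 library left out (130 without AKI 2, 672 without CKD 1). There Amn ranged from -0.27 to 0.13 with 1 library left out, positive without CKD 2, and was 0.032 without correction. Of the pairs outside the PT, DESeq2 and the 15% limit called 1 each, no filter 18, and leaving out 1 library 3 to 38.

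With the replicate block, 449 genes were called in PT-like cells, 552 in S1-S2-like cells and 5 pairs outside the PT. The 5 pairs are likewise given without the share of all genes called in their classes. No source says whether a replicate number marks a shared mouse or batch, and with 2 pairs the pairing was not taken as given. The deviations of libraries of the same number correlated at 0.02 in PT-like cells, at 0.12 to 0.26 in DCT-like, EC-like, NK-like, CD IC-like, T lymphocyte-like and TAL-like cells, and negatively in CD PC-like (-0.15) and thin limb-like cells (-0.22), where a crossed block, chosen after the data had been seen, called 70 and 4 genes, against 2 and 5 with the block.

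Mean PT-like levels of Lrp2 over libraries were 5.04 after subtracting the T lymphocyte-like level, 4.43 at 15%, 4.71 with doublets kept, 5.81 without a mitochondrial limit and 6.21 per non-mitochondrial UMIs. On the latter scale Cubn was 1.27, Amn 2.70, Dab2 4.40, Lrpap1 2.99 and Clcn5 0.900. Cubn was 0.916 at 15%. Dab2 was 3.45 with doublets kept and 3.02 without a limit. Lrpap1 was 2.21 after subtraction, 2.82 without correction and 2.18 without a limit. Mean shares with a UMI at 500 UMIs and unthinned were 23.7% and 76.3% for Lrp2, 5.89% and 44.0% for Cubn, 11.1% and 58.8% for Amn, 14.7% and 70.2% for Dab2, 10.4% and 57.0% for Lrpap1 and 3.06% and 32.8% for Clcn5.

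Injured-like cells were not fitted under any setting, for want of cells. S3-like cells were fitted without a mitochondrial limit (102 to 531 cells per library), and there 0 of 6 genes were called between CKD and AKI by edgeR and 2 had an unadjusted p under 0.05. The share of all genes called in that fit is not given here, so these counts are not read as a result about the members. CNT-like, DCT-like, TAL-like and monocyte-like cells were not fitted under some settings.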
